A study of Mus musculus with 20 samples.

Results

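The Bcl2 family of apoptosis regulators was followed through 10 named genes: the anti-apoptotic Bcl2, Bcl2l1 (Bcl-xL) and Mcl1, the effectors Bax and Bak1, and the BH3-only genes Bcl2l11 (Bim), Bbc3 (Puma), Pmaip1 (Noxa), Bid and Bad. Members were all probe sets whose platform gene symbol is one of these names. They came to 29 probe sets of 9 genes, out of 45101 probe sets and 18193 named genes on the array. The annotation used here pairs no probe set with Bax, so Bax was not analysed here. A probe set was kept when its highest group mean reached 3.95 on the log2 scale, the 40th percentile of all values. Of the 29, 26 were kept, and each of the 9 genes kept at least 1. The brightest kept probe set represents its gene unless another is named.

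RNA was measured on 20 arrays, 2 for each of 10 groups, in male mouse cells of mixed C57BL/6;129 background. All 5 lines descend from BVSCR26rtTA embryonic stem cells, which carry the reporters Blimp1-mVenus and stella-ECFP and the doxycycline-dependent activator Rosa26-rtTA. The parental line carries nothing more. The B, P14 and A lines add a doxycycline-responsive piggyBac transgene for Avi-Blimp1, 3xFLAG-Prdm14 or V5-Tfap2c respectively, and the BP14A line adds all 3. Each factor line is 1 clone, so the factors and the clone's own traits cannot be told apart. The first stage was epiblast-like cells (EpiLCs) made over 36 h without doxycycline. The next, called day 1, was EpiLC aggregates after 24 h in GK15 medium with 1.5 μg/ml doxycycline, in the parental line too. No group analysed here was aggregated without doxycycline, so aggregation, medium and drug cannot be told apart.

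Proteins of this family decide whether the outer mitochondrial membrane is opened, the step that releases cytochrome c and starts the caspases. Bax and Bak1 form the pores, Bcl2, Bcl2l1 and Mcl1 hold them back, and BH3-only proteins relieve that restraint or engage the effectors directly. Pmaip1 binds Mcl1 in particular, Bcl2l11 binds all the anti-apoptotic proteins, and Pmaip1 and Bbc3 are classical targets of p53. The balance of these proteins sets the survival of pluripotent and germ cells.

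The regions just upstream of 3 members are shown. At its brightest probe set Bcl2 rose in every line on day 1, while Bcl2l11 and Bak1 differed in BP14A in opposite directions. Each is the 250 bases before the RefSeq start (GRCm38.p6), 5′ to 3′ on the gene's strand. Bcl2 is at chr1:106714291-106714540 (minus strand), Bcl2l11 at chr2:128125788-128126037 (plus strand, the first of its 2 listed starts) and Bak1 at chr17:27028628-27028877 (minus strand). Capitals mark matches on either strand to GCCNNNGGC, a motif of AP2 proteins such as Tfap2c, or to GGGCGG, the GC box bound by Sp1; overlapping matches were all counted.
Bcl2: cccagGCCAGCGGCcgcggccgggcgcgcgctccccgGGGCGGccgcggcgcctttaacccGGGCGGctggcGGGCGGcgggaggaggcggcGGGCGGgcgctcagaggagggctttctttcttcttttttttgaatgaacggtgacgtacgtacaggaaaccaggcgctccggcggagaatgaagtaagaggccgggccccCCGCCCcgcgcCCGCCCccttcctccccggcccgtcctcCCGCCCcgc
Bcl2l11: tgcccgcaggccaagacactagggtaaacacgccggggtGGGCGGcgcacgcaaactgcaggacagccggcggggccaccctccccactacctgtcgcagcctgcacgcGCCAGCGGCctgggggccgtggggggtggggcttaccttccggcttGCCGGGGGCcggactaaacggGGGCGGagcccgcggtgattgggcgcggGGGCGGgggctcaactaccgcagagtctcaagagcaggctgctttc
Bak1: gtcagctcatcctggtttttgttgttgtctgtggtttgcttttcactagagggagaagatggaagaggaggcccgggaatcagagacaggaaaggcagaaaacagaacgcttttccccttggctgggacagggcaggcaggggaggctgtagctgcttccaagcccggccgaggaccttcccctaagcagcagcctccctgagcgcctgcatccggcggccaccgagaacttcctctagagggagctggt
The Bcl2 stretch held 1 AP2 and 7 GC box matches, that of Bcl2l11 held 2 and 3, and that of Bak1 held 0 of either. Their GC content was 74.8%, 72.0% and 58.4%, against a median of 52.4% over all listed starts. In the full window of 300 bases, which adds 50 bases after the start, AP2 matches occurred in 7 of the 14 windows of 8 listed members (those of Bcl2, Bcl2l11, Bbc3 and Bad) and in 16.6% of all 32851 windows. GC boxes occurred in 9 of the 14 member windows and in 35.7% of all windows. No member window held the PRDM1 core GAAAGT, found in 14.3% of windows, or the PRDM14 motif GGTCTCTAA, found in 0.256%. Such matches describe letters and are not binding sites.

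Labels and cells were checked before the members. All 8 epiblast markers of the marker list were above the filter level in all 10 groups, Pou5f1 between 12.2 and 12.5. On day 1 some were far lower in a factor line than in the parental line. Pou3f1 stood at 6.81 in BP14A and 8.37 in P14 (parental 11.68), Dnmt3b at 9.87 in BP14A (parental 13.21) and Tdgf1 at 5.87 in B (parental 12.13). Sox2 went the other way, at 12.5 in BP14A and in P14 and 11.8 in B (parental 10.7). Of 7 fibroblast or feeder markers, 4 were above the filter level in all groups, and the defining collagen gene Col1a1 was below it in every group. The summed feeder level (log2 of summed linear values) ran from 8.49 to 8.80 over EpiLC groups and from 7.51 to 8.63 over day 1 groups. In parental, BP14A, B, P14 and A day 1 cells Thy1 stood at 7.07, 4.03, 7.06, 4.44 and 6.92, Dcn at 7.25, 6.18, 7.19, 7.97 and 7.01, Col1a2 at 5.42, 5.62, 6.27, 5.50 and 6.01 and Col3a1 at 4.27, 4.53, 4.48, 4.76 and 4.51. The part of such cells and of these marker differences in the results was not tested. Tfap2c stood at 6.34 in parental day 1 cells, 11.6 in BP14A, 9.60 in B and 10.8 in P14, but at 5.94 in the line labelled A, so its probe set does not show the A transgene. Prdm14 stood at 3.51 in P14 and 4.04 in BP14A against 3.63 in the parental line, so its probe set does not show the P14 transgene. Prdm1 (Blimp1) stood at 6.36 in B and 8.67 in BP14A against 4.96, but also at 7.31 in P14. Whether these probe sets can read the transgenes is unknown here. Array medians lay between 4.60 and 4.86, and replicate arrays correlated at Pearson r from 0.966 to 0.976 over all probe sets, which are not independent. These are bulk values, in which fewer cells of a type and less RNA per cell cannot be told apart.

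Aggregation with doxycycline was read in the parental line, which has no factor transgene. Bcl2 rose, Mcl1 and Bbc3 fell, and the other 6 members did not pass the test (limma, Benjamini-Hochberg adjusted p under 0.05). So 3 of 9 members passed, against 34.5% of 14010 genes tested; 1 rose (background 21.9%) and 2 fell (12.6%), shares near the background. Only Bcl2 also changed by at least 1 on the log2 scale, as did 6.59% of genes. The median change was −0.12 over members and 0.05 over all genes. In the other lines the members passing were 5 of 9 in BP14A (background 41%), 5 in B (42.1%), 3 in P14 (35%) and 2 in A (32.8%).

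Bcl2, the founding anti-apoptotic member, stood at 5.22 and 5.17 in the 2 parental EpiLC arrays and at 6.81 and 6.64 on day 1. It rose by 1.53 ± 0.14 (SE, limma adjusted p = 8.14e-06), a 2.89-fold difference. The rise was 1.37 ± 0.14 in BP14A, 1.19 ± 0.14 in B, 1.37 ± 0.14 in P14 and 1.41 ± 0.14 in A, and it passed in each. Over all lines the 10 EpiLC arrays ran from 4.96 to 5.70 (median 5.27) and the 10 day 1 arrays from 6.36 to 6.91 (median 6.66), with no overlap. On day 1 no factor line differed from the parental line by a change that passed, the largest difference being −0.26 ± 0.14 in BP14A (adjusted p = 0.222).

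The probe sets of Bcl2 did not move together. The values above come from 1457687_at. At 1437122_at the parental arrays read 3.53 and 2.24 as EpiLCs, below the filter level, and 4.86 and 4.61 on day 1, a rise of 1.85 ± 0.36 (adjusted p = 0.00213 over all kept probe sets). In the other lines that probe set changed by between 0.47 and 0.86, with no pass. At 1422938_at and 1443837_x_at the parental changes were 0.15 ± 0.27 and −0.35 ± 0.30, and neither passed in any line. The change at 1443837_x_at was −0.65 in BP14A, −0.73 in B, −0.83 in P14 and −0.10 in A. With the 4 kept probe sets averaged, the rise was 0.79 ± 0.13 in the parental line (adjusted p = 0.000726), 0.39 ± 0.13 in BP14A and 0.61 ± 0.13 in A. The averaged changes of 0.16 in B (adjusted p = 0.386) and 0.23 in P14 (adjusted p = 0.227) did not pass. In each of BP14A, B, P14 and A, 1457687_at was the 1 probe set of Bcl2 that passed.

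**Figure D1:**
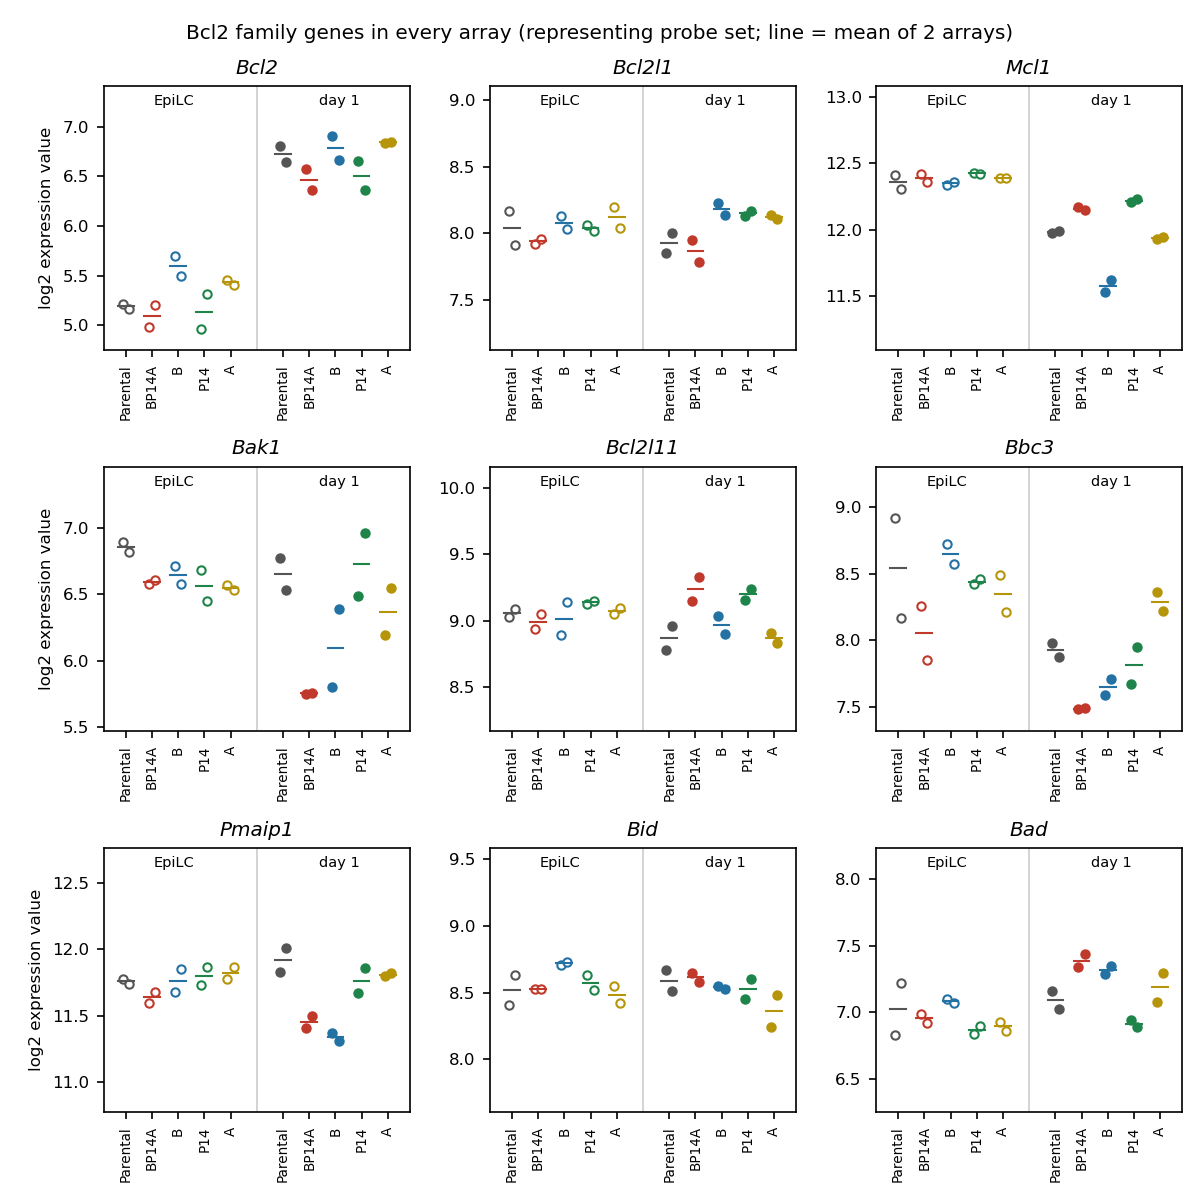
Log2 expression value (vertical axis) of the representing probe set of each of 9 Bcl2 family genes, by line and stage; points are single arrays (open for EpiLC, filled for day 1) and short lines are means of 2 arrays. All Bcl2 points lie higher on day 1 than in EpiLCs, between 6.36 and 6.91 against 4.96 and 5.70, and the B line has the lowest day 1 points of Mcl1, at 11.53 and 11.62.

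Mcl1, the short-lived anti-apoptotic protein that Pmaip1 targets, fell in every line. In parental cells its arrays read 12.41 and 12.31 as EpiLCs and 11.98 and 11.99 on day 1, and it fell by 0.38 ± 0.05 (adjusted p = 0.000174). It fell by 0.45 ± 0.05 in A, by 0.23 ± 0.05 in BP14A, by 0.21 ± 0.05 in P14 and by 0.78 ± 0.05 in B. The 10 EpiLC arrays, from 12.31 to 12.43, all lay above the 10 day 1 arrays, from 11.53 to 12.23. All 6 probe sets of Mcl1 had a negative change in each of the 5 lines. They read the same gene on the same arrays, so they are not replicates. In the parental, B and A lines all 6 passed, and in BP14A and P14 5 of 6 did. The changes at the 6 probe sets ran from −0.96 to −0.38 in the parental line and from −1.36 to −0.78 in B. The P14 call ended without P14 day 1 replicate 1 (−0.21 became −0.20, adjusted p = 0.0519) or P14 EpiLC replicate 1 (adjusted p = 0.0519), and centring arrays on their medians ended it and that of BP14A (adjusted p = 0.109 and 0.108).

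Bbc3, which p53 activates, has 1 probe set. Its parental arrays read 8.92 and 8.17 as EpiLCs and 7.98 and 7.87 on day 1, and it fell by 0.62 ± 0.21 (adjusted p = 0.0351). The 2 EpiLC arrays lay far apart: without parental EpiLC replicate 1 the change was −0.25 (adjusted p = 0.351), and without day 1 replicate 1 or 2 the adjusted p was 0.0825 or 0.143. Bbc3 fell by 1.00 ± 0.21 in B (adjusted p = 0.00190), from 8.72 and 8.57 to 7.59 and 7.71. That call was kept in 12 alternatives, which reuse the same arrays. The unrounded change of −0.995 falls short of the size rule of at least 1. Bbc3 fell by 0.57 ± 0.21 in BP14A (adjusted p = 0.0432) and by 0.63 ± 0.21 in P14 (adjusted p = 0.0319). In A the change was −0.06 ± 0.21, from 8.49 and 8.21 to 8.36 and 8.22, and its difference from the parental change did not pass (0.56 ± 0.29, adjusted p = 0.998). The BP14A call ended without BP14A EpiLC replicate 1 (−0.37, adjusted p = 0.284) or either day 1 array (adjusted p = 0.124 each). That of P14 ended without P14 day 1 replicate 1 (adjusted p = 0.185) or EpiLC replicate 1 or 2 (adjusted p = 0.0983 and 0.117).

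The remaining members did not pass in the parental line at their representing probe sets. Bid, which caspase-8 cleaves to link death receptors to mitochondria, changed by 0.07 ± 0.10, and its 20 arrays ran from 8.24 to 8.73. Bcl2l1, which encodes Bcl-xL, had −0.12 ± 0.09 and ran from 7.78 to 8.23, so both stayed within narrow ranges over all lines and stages. Pmaip1 had 0.16 ± 0.09, Bak1 −0.21 ± 0.19, Bcl2l11 −0.19 ± 0.10 and Bad, whose product is held inactive by phosphorylation, 0.07 ± 0.11. Dimmer probe sets did pass for 4 of these genes. Those of Bcl2l11, 3 of 5 passing lower, are given with that gene. At 1416582_a_at of Bad the arrays went from 5.01 and 4.80 to 6.03 and 5.60 (0.91 ± 0.32, adjusted p = 0.0493). At 1426191_a_at of Bcl2l1 they went from 3.70 and 4.29 to 2.85 and 2.82 (−1.16 ± 0.31, adjusted p = 0.0140), around and below the filter level. At 1447873_x_at of Bid they went from 6.36 and 6.17 to 5.81 and 5.80 (−0.46 ± 0.15, adjusted p = 0.0415). The probe sets of Bcl2l1 and Bid thus differed in sign. Those of Bad were all positive and those of Bcl2l11 all negative, but they differed in size and in which passed. Averaged over its 5 probe sets, Bcl2l11 fell by 0.72 ± 0.15 (limma adjusted p = 0.00288).

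Before doxycycline no member passed between any factor line and the parental line in limma. The lowest adjusted p was 0.320, for Bcl2 in B (0.41 ± 0.14). At an unadjusted p under 0.05 there was 1 member in BP14A (Bbc3), 1 in B (Bcl2) and 0 in P14 and A. The shares of all genes that passed at this stage were 0.0571% for BP14A, 0.236% for B, 0.0642% for P14 and 0.0357% for A.

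The series set out to find genes altered by each factor, which the day 1 comparison with the parental line addresses. Mcl1 and Pmaip1 were lower in B, Bak1 and Pmaip1 were lower in BP14A, and Bcl2l11 was higher in BP14A and P14. In BP14A 4 of 9 members passed (background 27.5%), 2 higher (12.4%) and 2 lower (15%). In B 2 of 9 passed (17.2%), both lower (8.79%), and in P14 2 of 9 (23.9%), both higher (8.84%). In A 0 of 9 passed in limma (0.0857%), with 1, Bid at −0.23 ± 0.10, at an unadjusted p under 0.05. No member reached a log2 difference of 1 in any line, which 6.62% of genes did in BP14A, 2.6% in B, 5.38% in P14 and 0.0286% in A. These 4 comparisons share the parental day 1 arrays. With only the groups compared in the fit, 7 of these 8 calls ended (adjusted p from 0.0676 to 0.207) and Bak1 in BP14A was kept. The change from EpiLC to day 1 differed from the parental change for 1 of 9 members in BP14A (18.7% of genes), 2 in B (8.66%), 0 in P14 (12.1%, 1 member unadjusted) and 0 in A (0%, 0 unadjusted), all in limma.

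**Figure D2:**
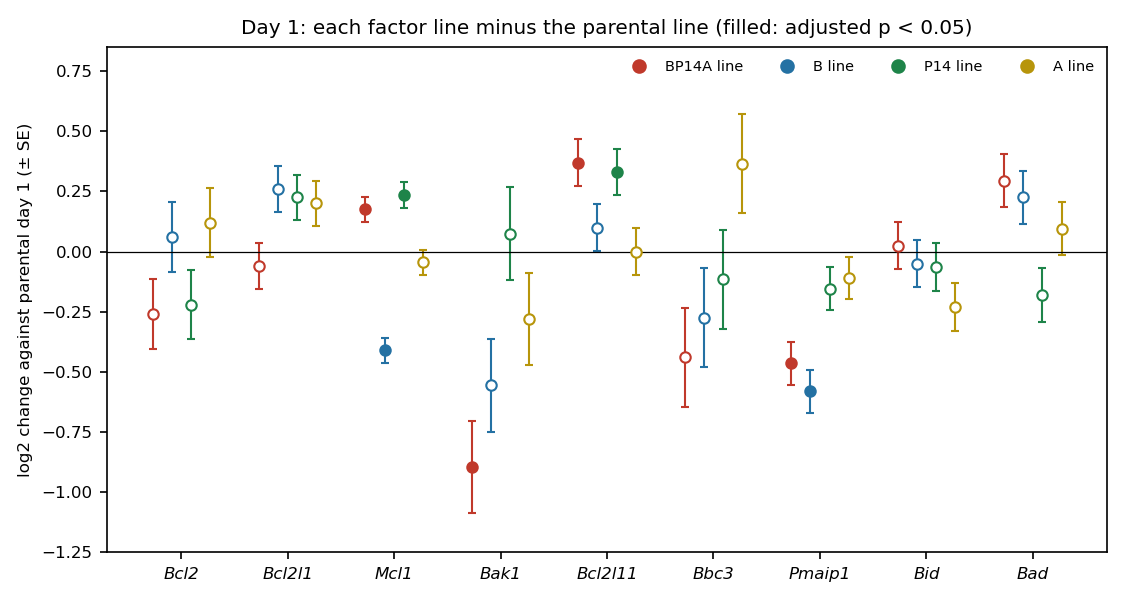
Log2 change of each factor line against the parental line on day 1 (vertical axis) for 9 Bcl2 family genes; points are limma estimates, bars are ± 1 SE, and filled points have an adjusted p under 0.05. Filled points are Mcl1 in 3 lines, Pmaip1 and Bcl2l11 in 2 lines each and Bak1 in BP14A at −0.90.

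Mcl1 was lower in B on day 1. Its arrays read 11.53 and 11.62 there, below both parental arrays at 11.98 and 11.99, a difference of −0.41 ± 0.05 (adjusted p = 0.000284) or 1.33-fold. All 6 Mcl1 probe sets, which are not replicates, were lower in B and passed, from −0.70 to −0.41. The change from EpiLC to day 1 differed from the parental one by −0.40 ± 0.07 (interaction, adjusted p = 0.00710), and 2 of 6 probe sets passed that test. With arrays centred on their medians the interaction was −0.50 (adjusted p = 0.0767). BP14A stood above B at all 6 probe sets, each past the test, the representing one by 0.59 ± 0.05 (adjusted p = 4.98e-06).

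Mcl1 in BP14A and P14 depended on the probe set. The representing one, 1448503_at, read 12.17 and 12.15 in BP14A and 12.21 and 12.23 in P14, above the parental arrays by 0.18 ± 0.05 (adjusted p = 0.0268) and 0.24 ± 0.05 (adjusted p = 0.00616). In BP14A 2 of 6 probe sets had a positive difference and 4 a negative one, from −0.14 to 0.22, and in P14 5 were positive and 1 negative. Averaged over the 6, the difference was −0.01 ± 0.08 (adjusted p = 0.932) in BP14A and 0.10 ± 0.08 (adjusted p = 0.461) in P14. The BP14A call ended without any of the 4 arrays compared (adjusted p = 0.112 and 0.0779 without BP14A replicate 1 or 2, 0.108 and 0.0896 without parental replicate 1 or 2). Centring arrays on their medians ended both calls (adjusted p = 0.355 and 0.228).

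Pmaip1, the Mcl1-binding BH3-only gene, was lower in both lines that carry the Avi-Blimp1 transgene. Its day 1 arrays read 11.83 and 12.01 in the parental line, 11.41 and 11.50 in BP14A and 11.37 and 11.31 in B. Both lines lay below both parental arrays, but so did A at 11.80 and 11.82, where the difference did not pass. The differences were −0.47 ± 0.09 (adjusted p = 0.00184) in BP14A and −0.58 ± 0.09 (adjusted p = 0.000949) in B, or 1.38-fold and 1.49-fold. In P14 the arrays read 11.67 and 11.86, a difference of −0.16 ± 0.09 with a 95% interval from −0.35 to 0.04, and in A the difference was −0.11 ± 0.09. The direct comparison of BP14A with P14 did not pass (−0.31 ± 0.09, adjusted p = 0.0656), so the P14 line is not shown to differ from BP14A. With A it passed (−0.36 ± 0.09, adjusted p = 0.00967), but not without BP14A replicate 1 (adjusted p = 0.0685) or A replicate 2 (adjusted p = 0.0538).

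Within B, Pmaip1 went from 11.68 and 11.85 to 11.37 and 11.31 and fell by 0.43 ± 0.09 (adjusted p = 0.00207). Its change differed from the parental one by −0.59 ± 0.13 (interaction, adjusted p = 0.0144). Without B day 1 replicate 2, B EpiLC replicate 2 or parental day 1 replicate 2 the interaction was −0.56, −0.50 and −0.50, and its adjusted p rose to 0.05001, 0.0598 and 0.0556. In BP14A the interaction did not pass (−0.35 ± 0.13, adjusted p = 0.0812).

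Bak1, the pore-forming effector measured here, was lower in BP14A at 1418991_at, its 1 kept probe set. The other, 1425716_s_at, had all group means below the filter level and was not tested. On day 1 it read 2.87 and 3.41 in the parental line and 3.48 and 2.48 in BP14A, which overlap. At 1418991_at the day 1 arrays read 5.75 and 5.76 in BP14A and 6.77 and 6.53 in the parental line. The difference was −0.90 ± 0.19 (adjusted p = 0.00400) or 1.86-fold. This call was kept in 12 alternatives, which reuse the same arrays, but is under the size rule. In B the arrays at 1418991_at read 5.80 and 6.39, 1 near BP14A and the other near the parental. The B difference did not pass (−0.56 ± 0.19, adjusted p = 0.0702). In P14 they read 6.49 and 6.96, overlapping the parental arrays (0.08 ± 0.19). BP14A differed from P14 by −0.97 ± 0.19 (adjusted p = 0.0102) and from A by −0.62 ± 0.19 (adjusted p = 0.0309). The first of these ended without P14 replicate 2 (−0.74, adjusted p = 0.103) or either BP14A array (adjusted p = 0.0526 and 0.0649). The other ended without A replicate 2 (−0.44, adjusted p = 0.217) or either BP14A array (adjusted p = 0.103 and 0.105).

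From EpiLC to day 1 Bak1 went from 6.58 and 6.61 to 5.75 and 5.76 in BP14A at 1418991_at. It fell by 0.84 ± 0.19 (adjusted p = 0.00380). That call was kept in 12 alternatives, which reuse the same arrays, but is again under the size rule. In B Bak1 fell by 0.55 ± 0.19 (adjusted p = 0.0368). The B fall rests on single arrays: without B day 1 replicate 1 it was −0.26 (adjusted p = 0.348), and without B EpiLC replicate 1 or 2 the adjusted p was 0.156 or 0.0750. The interaction for BP14A did not pass (−0.64 ± 0.27, adjusted p = 0.136), so the BP14A change is not shown to differ from the parental one.

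Bcl2l11, the broadly binding BH3-only gene, was higher in BP14A than in the parental line on day 1. At its brightest probe set, 1435448_at, the arrays read 8.78 and 8.96 in the parental line and 9.15 and 9.33 in BP14A, a difference of 0.37 ± 0.10 (adjusted p = 0.0128). That call ended without BP14A replicate 2 or parental replicate 1, the difference being 0.28 in both cases (adjusted p = 0.117 and 0.116). At 1426334_a_at the parental arrays went from 6.74 and 6.99 to 5.82 and 5.55, while those of BP14A went from 6.79 and 6.85 to 6.60 and 6.62. The parental change there was −1.18 ± 0.15 (adjusted p = 9.92e-05 over all kept probe sets), and BP14A was above the parental line on day 1 by 0.93 ± 0.15 (adjusted p = 0.000614).

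The other probe sets had the same sign, though probe sets of the same gene are not replicates. All 5 were higher in BP14A than in the parental line on day 1, from 0.37 to 0.93, and 4 passed. All 5 had a negative parental change from EpiLC to day 1, from −1.18 to −0.19, and 3 passed. The interaction of line and stage was 0.44 ± 0.14 at the brightest (adjusted p = 0.0448 over genes, 0.0632 over all kept probe sets). Over the 5 it ran from 0.44 to 1.01, and 2, at 1435449_at (adjusted p = 0.0379) and 1426334_a_at (adjusted p = 0.00775), passed. Averaged over the 5, the interaction was 0.84 ± 0.21 (adjusted p = 0.0158) and the day 1 difference 0.74 ± 0.15 (adjusted p = 0.00275). At the brightest the interaction no longer passed without BP14A day 1 replicate 2 (adjusted p = 0.157), BP14A EpiLC replicate 1 (0.136) or 2 (0.0595), parental day 1 replicate 1 (0.156), or parental EpiLC replicate 1 (0.0744) or 2 (0.105).

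In P14 Bcl2l11 read 9.16 and 9.24 on day 1, above the parental line by 0.33 ± 0.10 (adjusted p = 0.0266), and 2 of 5 probe sets passed. The call at the brightest ended without P14 replicate 1 (adjusted p = 0.0602) or 2 (0.142), without parental replicate 1 (0.201), and with the 5 averaged (0.34 ± 0.15, adjusted p = 0.133). In B the 5 differences were positive, from 0.10 to 0.74, and 0 passed in limma, nor did their average (0.39 ± 0.15, adjusted p = 0.106). BP14A differed from P14 at the brightest by 0.04 ± 0.10, which did not pass, and from A by 0.37 ± 0.10 (adjusted p = 0.0121). The comparison with A ended at that probe set without BP14A replicate 2 (adjusted p = 0.114) or A replicate 2 (0.0815), and 4 of 5 probe sets passed it.

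**Figure D3:**
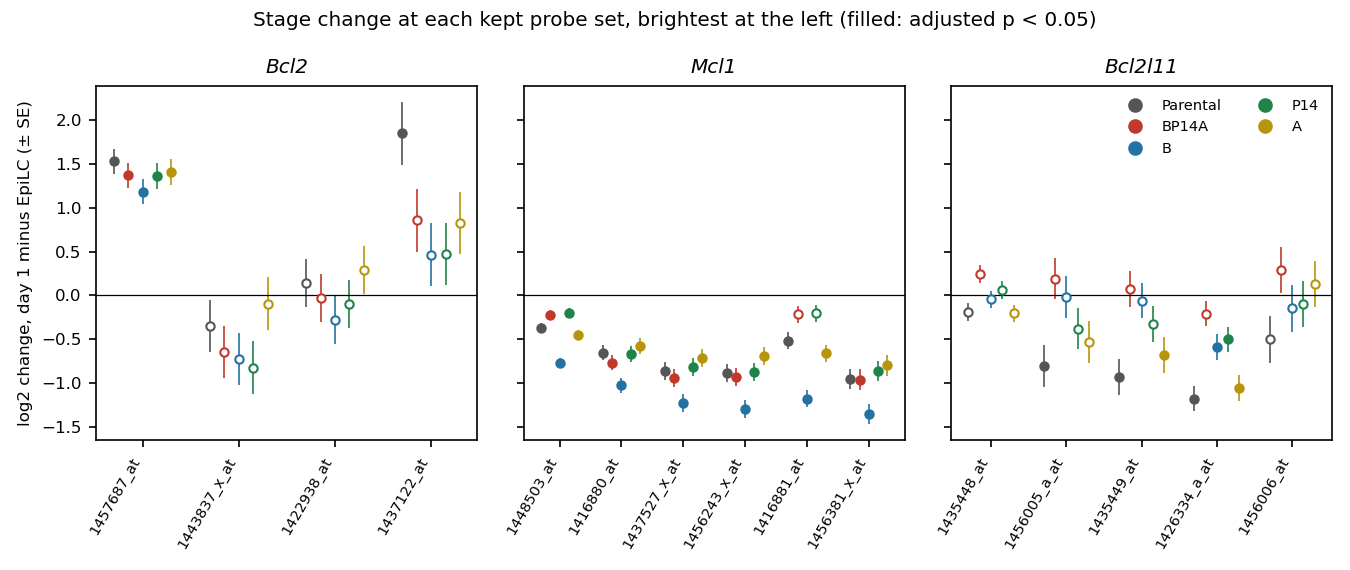
Log2 change from EpiLC to day 1 (vertical axis) at each kept probe set of Bcl2 (4), Mcl1 (6) and Bcl2l11 (5) in the 5 lines; points are limma estimates, bars are ± 1 SE, and filled points have an adjusted p under 0.05 over all kept probe sets. Every Mcl1 point is below 0 with B lowest, the Bcl2 probe sets differ in sign, and for Bcl2l11 the parental points lie between −1.18 and −0.19 with the BP14A point above each.

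BP14A was also compared with each line of a single factor on day 1. Of 9 members it differed from B in 2 (background 28.1%), from P14 in 2 (6.17%) and from A in 5 (28.9%). Besides Mcl1, Bak1, Bcl2l11 and Pmaip1, these were Bad, Bcl2l1 and Bbc3. Bad read 7.34 and 7.44 in BP14A and 6.94 and 6.89 in P14, a difference of 0.48 ± 0.11 (adjusted p = 0.0248). That call ended without any of the 4 arrays compared (adjusted p = 0.0612 and 0.163 without BP14A replicate 1 or 2, 0.0914 and 0.133 without P14 replicate 1 or 2), and with both probe sets averaged it was 0.25 (adjusted p = 0.546). Within BP14A, Bad rose by 0.44 ± 0.11 (adjusted p = 0.00729, or 0.0554 without day 1 replicate 2).

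Bcl2l1 read 7.95 and 7.78 in BP14A and 8.23 and 8.14 in B, a difference of −0.32 ± 0.09 (adjusted p = 0.0238). It did not pass without BP14A replicate 2 (adjusted p = 0.172) or B replicate 1 (0.136), or with probe sets averaged (−0.07, adjusted p = 0.822). Bbc3 read 7.48 and 7.49 in BP14A and 8.36 and 8.22 in A, a difference of −0.81 ± 0.21 (adjusted p = 0.0107, or 0.0714 without A replicate 1). Mcl1 differed between BP14A and A by 0.22 ± 0.05 (adjusted p = 0.00734), but with 2 of 6 probe sets positive and 4 negative.

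Of 14 other Bcl2 family genes listed, 10 were tested. In the parental line 3 rose (background 21.9%) and 1 fell (12.6%) on day 1 (median 0.25). Bnip3, a mitophagy receptor induced in hypoxia, fell by 2.20 ± 0.18 (adjusted p = 3.29e-06), and the BH3-only genes Bik and Bmf rose by 0.91 and 0.77. Against the parental line on day 1, 0 were higher (background 12.4%) and 4 lower (15%) in BP14A (median −0.31), and 0 higher (8.84%) and 4 lower (15%) in P14 (median −0.32). Bik differed by −1.67 ± 0.13 in P14 (adjusted p = 1.49e-06) and −0.98 in BP14A, and Bok, a relative of Bax and Bak1, by −0.83 and −0.96. In limma 0 of 10 passed in B, where 8.42% of genes were higher and 8.79% lower, and in A, where 0.0143% were higher and 0.0714% lower. The medians over all genes in these comparisons lay between −0.04 and 0.05.

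Downstream of the family, 12 caspase and apoptosome genes were tested. None reached a change of 1 in the parental stage change or in the 4 day 1 comparisons with the parental line. On day 1 in BP14A 0 were higher (background 12.4%) and 2 lower (15%), in B 1 (8.42%) and 3 (8.79%), in P14 0 (8.84%) and 3 (15%), and in A 0 and 0. Apaf1, the scaffold of the apoptosome, differed by −0.65 in BP14A and −0.63 in P14, and the executioner Casp6 by −0.99 and −0.93. Casp9, which Apaf1 activates, differed by 0.40 in B. In the parental line 4 rose (background 21.9%) and 3 fell (12.6%) on day 1. Of 8 inhibitors of apoptosis, 4 rose and 0 fell in the parental line, against the same background. Against the parental line on day 1, 1 was higher and 1 lower in BP14A and in P14, 1 and 0 in B and 0 and 0 in A, beside the shares of all genes just given.

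From a list of p53 targets that also holds Trp53 itself, 18 genes were tested. On day 1, 2 were higher (background 12.4%) and 7 lower (15%) in BP14A (median −0.21, all genes −0.02), with the cell cycle inhibitor Cdkn1a at −1.04 ± 0.19 (adjusted p = 0.00144). The counts were 0 (8.42%) and 3 (8.79%) in B, 3 (8.84%) and 3 (15%) in P14 and 0 and 0 in A. From EpiLC to day 1, 3 rose (background 21.9%), Perp by 1.20, and 4 fell (12.6%) in the parental line. In BP14A 3 rose (23.2%) and 9 fell (17.8%), in B 1 (24.1%) and 8 (18%), in P14 4 (19.2%) and 7 (15.8%) and in A 3 (20.5%) and 5 (12.3%). In the interaction with the parental line the counts were 1 higher (8.62%) and 5 lower (10.1%) in BP14A and 0 (3.72%) and 7 (4.94%) in B. They were 1 (4.83%) and 1 (7.29%) in P14, and 0 and 0 in A. Before doxycycline 2 were already higher (background 0.128%) and 0 lower (0.107%) in B than in the parental line. The median there was 0.33, against 0.02 over all genes. The B interaction includes this EpiLC difference. 

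Among 10 regulators of BH3-only genes, Myc fell by 1.88 ± 0.11 in parental cells. On day 1 Myc differed from the parental line by −2.62 ± 0.11 in B, 1.36 ± 0.11 in P14 and 0.83 in BP14A. Mycn differed by 1.05 and 1.12 in BP14A and P14, Jun by −1.29 and −1.16, and the stress-induced Trib3 by −1.64 in B. In all, 2 regulators were higher (background 12.4%) and 4 lower (15%) in BP14A, 1 (8.42%) and 4 (8.79%) in B, 2 (8.84%) and 5 (15%) in P14 and 0 and 0 in A. Of 5 genes of Mcl1 protein turnover, 1 was higher and 1 lower in BP14A and in P14, beside the shares of all genes just given. In B and A 0 passed in limma. The deubiquitinase Usp9x differed by 0.58 in BP14A and 0.71 in P14, and the kinase Gsk3b by −0.44 and −0.35.

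The tested genes most like a member were sought for the 3 members whose 10 group means spanned at least 1, by Pearson r over those means. For Bcl2 they were Stxbp4 (r = 0.993), Ik (0.990) and Ncapg2 (0.990). For Bak1 they were Slc6a8 (0.945), Myrf (0.916) and Flnc (0.910). For Bbc3 they were 1700020N01Rik (0.950), Sdc3 (0.947) and Tfr2 (0.946). These values describe 10 groups that share lines and stages and are the highest of 14010 genes, so they carry no test.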

How the data were processed

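RNA was purified with RNeasy columns and labelled as biotinylated cRNA for Affymetrix arrays, per the labels' protocols. The authors deposited log2 values, 1 per probe set and array (the base was inferred from their range, 0 to 13.83). How they were normalized and summarised is not stated in the labels or files read here. The platform annotation gave 34945 of 45101 probe sets 1 gene, 932 several and 9160 none; 64 control probe sets were left out.

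limma 3.58.1 (R 4.3.3) fitted 10 group means to all 20 arrays, over the brightest of the kept probe sets (25357) of each of 14010 genes, with Benjamini-Hochberg adjustment within each of 20 comparisons. Other member probe sets were tested in a fit over all kept probe sets. Counts of probe sets of a gene describe agreement within the same arrays and not replication. Interactions compare a line's stage change with the parental one. The scripts were tested on simulated data, with fewer changed genes than passed in the real data. For BP14A against the parental line on day 1, 28% of planted changes of 0.4 and 68% of those of 1 were recovered. A member that did not pass may therefore differ all the same. Each group has 2 arrays, which the submitters describe as biological duplicates, and this number limits the precision. The members and lists were chosen with earlier results of these data known. Named were all members and the 3 genes most like a member. Of list genes that passed with a change of at least 1, at most 4 per list and comparison were named, and some of that size were left out. List genes with smaller changes were picked after their values were seen. Alternatives were other filters, scalings, probe set averaging, a variance trend, a replicate block, only the groups compared, the size rule and leaving out arrays. They reuse the same arrays and are not independent checks. The variance trend, the replicate block and only the groups compared alter the error of an estimate and not the estimate. Averaging cannot change the estimate of a gene with 1 kept probe set. Promoter sequences (RefSeq, 8 of 10 members used) were searched in Python 3.11.15.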

Additional observations from a re-analysis of the deposited data

Results flagged for a closer look

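In 3 cases a member's change from EpiLC to day 1 differed between a factor line and the parental line by a test of the difference itself. These were 1 of 9 members in BP14A, where 18.7% of genes passed, and 2 of 9 in B (8.66%). In P14 (12.1%) and A (0%) 0 of 9 passed in limma. Mcl1 changed by −0.38 in the parental line and −0.78 in B, a difference of −0.40 ± 0.07 (SE, limma adjusted p = 0.00710). Pmaip1 changed by 0.16 in the parental line and −0.43 in B, a difference of −0.59 ± 0.13 (adjusted p = 0.0144). Bcl2l11 changed by −0.19 in the parental line and 0.25 in BP14A, a difference of 0.44 ± 0.14 (adjusted p = 0.0448). At the 5 Bcl2l11 probe sets the BP14A change ran from −0.21 to 0.29, and 0 passed. With only the groups compared in the fit all 3 calls ended. Centring arrays on their medians ended those of Mcl1 and Bcl2l11. Leaving out some single arrays ended those of Pmaip1 and Bcl2l11. Groups of 2 arrays allow no test for an outlying array.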

How the results depend on the processing

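Of 38 member changes that passed, 9 passed in every alternative tried for them other than the size rule, and 1 turned in sign: Mcl1 in BP14A against the parental line on day 1, at −0.014 with its probe sets averaged. Fitting only the groups compared, which leaves few residual degrees of freedom, ended 24 of the 38, centring arrays on their medians 12, averaging probe sets 8, no filter 4 and quantile normalization 1; the causes were not tested. Counts of members that passed moved as follows. With only the groups compared they were 1 for the parental stage change, 2 for BP14A on day 1, and 0 for B and P14 on day 1 and for the B interaction. Requiring a log2 change of at least 1 left 1 in the parental stage change and 0 for BP14A, B and P14 on day 1 and for the BP14A and B interactions. Centring gave 0 for P14 on day 1, 0 for the BP14A interaction and 1 for the B interaction, averaging probe sets 0 for P14 on day 1, and no filter 0 for the BP14A interaction. A variance trend gave 2 for the BP14A interaction and 1 for the P14 interaction.

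Leaving out single arrays gave 2 to 3 for the parental stage change, 2 to 3 for BP14A, 2 to 3 for B, 1 to 2 for P14 and 0 to 0 for A on day 1, and 0 to 1, 1 to 2, 0 to 0 and 0 to 0 for the BP14A, B, P14 and A interactions. The main fit did not pair arrays by replicate number. Deviations of same-numbered arrays correlated above 0.1 in 6 of 45 pairs of groups (median 0.02, highest 0.20). This check cannot decide whether same-numbered arrays were handled together. With the replicate block 36.5% of genes passed in the parental stage change, against 34.5% without it. With the replicate block the BP14A interaction counted 2 members in place of 1. Scaling moved the median of all genes by at most 0.1 (log2).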
